A study of Mus musculus with 12 samples.

Results

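Genes of lysosomal enzymes and membrane proteins were followed in bone marrow-derived macrophages (BMDMs), with 31 genes measured of the 32 chosen, among 32301 genes or transcripts on the array. They were chosen by name, for what their products do, and not by a rule on their values, although earlier results of these data were known. The probe of each was found through its RefSeq accession. They comprised 7 cysteine cathepsins, 3 aspartic and serine peptidases, 8 glycosidases and sulfatases, 5 genes of lipid handling, 7 measured membrane proteins and the transcription factor *Tfeb*. *Cd68* was not analysed here. All 31 were well above background on all 12 arrays, so that none passed the filter on dim genes through a single group.

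BMDMs, grown from bone marrow with M-CSF for 7 days, came from 8-week-old wild-type mice (WT) and from KpCKO mice, which carry *Keap1* flox/flox with *LysM*-Cre. LysM-Cre is active in myeloid cells, and Keap1 is the adaptor that holds the transcription factor Nrf2 low. Cells of each genotype received no stimulus (Con), or were given LPS (5 ng/ml) and IFNγ (10 ng/ml) over 6 h (M1), or given IL-4 (10 ng/ml) over 6 h (M2). The 12 arrays made 6 groups of 2. Each culture was started from 1 mouse of each genotype, and the mice of culture 1 were male and those of culture 2 female, so that culture, sex and mouse cannot be told apart within a genotype.

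Lysosomes are acidic organelles in which macrophages digest what they take up by phagocytosis and what autophagy delivers. Soluble hydrolases reach them with a mannose 6-phosphate tag, a proton pump (the v-ATPase) keeps the lumen acidic, and heavily glycosylated membrane proteins line it. Many of these genes carry an E-box-like motif near the start site, through which TFEB and its relatives drive them together.

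*Keap1* itself was lower in KpCKO under each stimulus, by 1.46 to 1.81 on the log2 scale, and the Nrf2 target *Nqo1* was higher by 3.23 to 3.52, so that the genotype labels were borne out (limma, adjusted p at most 0.0336). All 8 macrophage markers were above background in all groups, whereas the markers of T, B and NK cells summed to at most 0.591 times the 75th percentile of an array. Neutrophil markers, 7 to 9 of the 10 matched above background, summed to 13.2 to 18.3 in culture 1 and 6.18 to 10.1 in culture 2, with 2 higher and 1 lower in KpCKO of 9 tested in the average. Their part in the results was not tested. Array brightness, read as the 75th percentile of the signal, was lowest in M1 (757 and 548 in WT, 906 and 787 in KpCKO) and 966 to 1166 elsewhere, and 59.3% to 71.5% of probes were well above background. The 4 arrays of a stimulus shared a slide, so that each genotype comparison lay on a single slide, and the effects of stimulus and slide cannot be told apart. Levels below are log2 signals relative to the 75th percentile of their array, given for culture 1 and then culture 2, and differences are between such levels. The number of arrays limits the precision of all of them, and a call is a Benjamini-Hochberg adjusted p under 0.05 over all genes tested.

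The M1 stimulus left the deepest mark on these genes, with *Sgsh* and *Lipa* down and *Ctsc* up on all arrays of WT. Under M2 few of them moved. Between the genotypes, averaged over the conditions, *Lipa* was higher and *Ctsc* lower in KpCKO. The M1 comparison added *Sgsh*, *Npc1*, *Neu1* and *Gusb* as higher in KpCKO. The map of all 12 arrays shows the M1 responses and the M1 gap of *Lipa*. Its colours are cut for *Sgsh* on the M1 arrays of both genotypes, so that the genotype difference of *Sgsh* cannot be seen there.

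**Figure D1:**
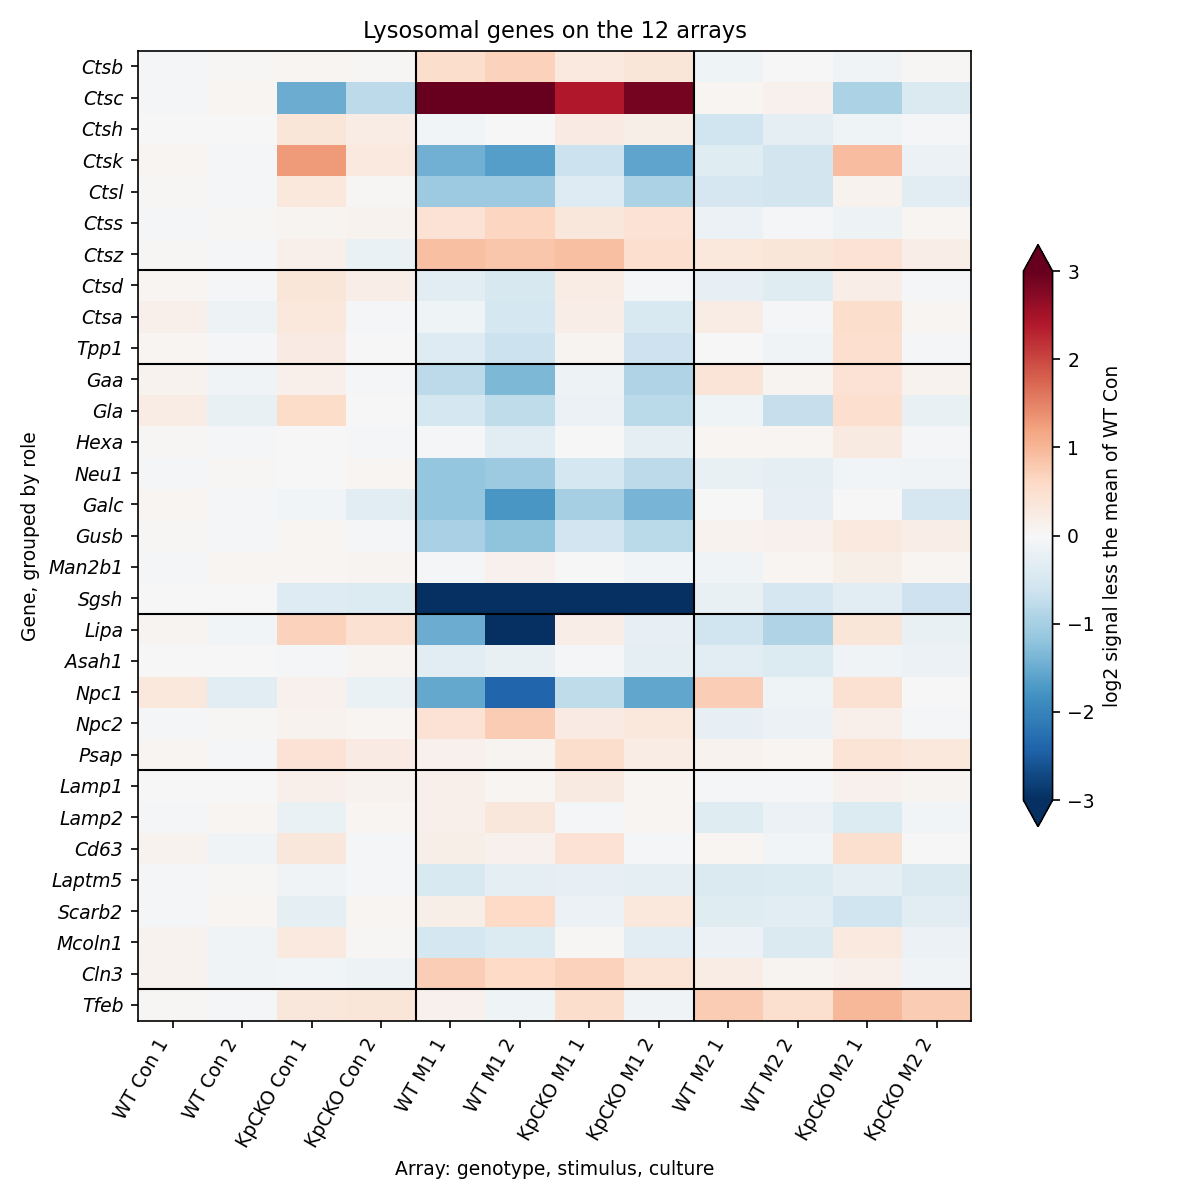
Heat map of the log2 signal of 31 lysosomal genes (rows, grouped by role, black lines) on the 12 arrays (columns), each less the mean of the 2 WT Con arrays of that gene; the colour scale is cut at 3 and −3. The M1 columns hold the strongest colours, red for *Ctsc* and blue for *Sgsh*, and the *Lipa* row is blue on the WT M1 arrays and pale on the KpCKO M1 arrays.

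Whether loss of *Keap1* shifts these genes was asked first without a stimulus. Only *Ctsc* passed the test in Con, where it was lower in KpCKO, against 2.22% of all genes tested (1.39% higher and 0.827% lower). The median difference of the 31 genes was 0.07, beside 0.00 over all genes. *Ctsc* encodes cathepsin C, a dipeptidyl peptidase that activates serine proteases of immune cell granules. Its level was 3.84 and 3.96 in WT Con and 2.41 and 3.11 in KpCKO Con, a 2.21-fold lower signal (log2 difference −1.14 ± 0.17 (SE), adjusted p = 0.0238). The values did not overlap, and the culture 1 mouse had the larger gap. The call was lost without any of the 4 Con arrays, with no *Ctsc* value of the opposite sign. *Psap*, *Ctsd*, *Ctsk* and *Ctsh* reached an unadjusted p between 0.0114 and 0.0471 with differences of 0.28 to 0.79, and did not pass the adjusted test. With *Ctsc*, 5 of the 31 (16.1%) had an unadjusted limma p under 0.05, near the 14.1% of all genes.

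In M1, 7 of the 31 genes passed the test, or 22.6% against 16.0% of all genes. Of these 6 were higher in KpCKO, a direction in which 7.42% of all genes were called, and only *Ctsc* was lower, as were 8.58% of all genes. The median difference was 0.20, beside −0.09 over all genes. With quantile normalization in place of the 75th percentile, 10 were higher and none was lower. The share of all genes called under that scaling was not computed, for this or for the later counts with quantile normalization. The count depended on single arrays: it dropped to 0 when KpCKO M1 of culture 1 was left out, to 1 when WT M1 of culture 2 was, and to between 4 and 6 for any other array. The count was also 0 when only the 4 M1 arrays entered the model and 1 without the term for culture.

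Among the genes of lipid handling, *Lipa* differed most. It encodes lysosomal acid lipase, which splits the cholesteryl esters and triglycerides of ingested lipoproteins. Its level was 3.87 and 2.33 in WT M1 (3.1 ± 1.09, SD, n = 2) and 5.56 and 5.11 in KpCKO M1 (5.34 ± 0.32), a 4.71-fold higher signal in KpCKO (log2 difference 2.24 ± 0.32 (SE), adjusted p = 0.00839). The WT M1 array of culture 2, with the lowest level of *Lipa*, was also the array with the lowest 75th percentile, and the part of that in the difference was not tested. With that array left out the difference was 1.64 (adjusted p = 0.00915), whereas the call was lost when KpCKO M1 of culture 1 was left out (2.29, adjusted p = 0.0522) and when only the 4 M1 arrays entered the model (adjusted p = 0.162), and the methods' t-test gave an adjusted p = 0.476. Marker sums differed between the genotypes beside it: the 6 dendritic cell markers, 4 to 6 of them above background, summed to 8.02 to 27.1 times the 75th percentile in KpCKO and 1.68 to 8.92 in WT, and the 8 macrophage markers in M1 to 506 and 604 in KpCKO and 717 and 984 in WT. A sum weighs the brightest markers most. Of the 6 dendritic cell markers in M1, 1 was called higher and 1 lower in KpCKO. Only 2 of the 6 had a positive difference, and the median was −0.35. Of the 8 macrophage markers in M1, 1 was called higher and 5 lower. The part of these markers in the genotype differences was not tested. In Con the levels of *Lipa* were 5.43 and 5.28 in WT and 6.04 and 5.82 in KpCKO. In M2 they were 4.76 and 4.46 in WT and 5.73 and 5.14 in KpCKO. Thus KpCKO lay above WT in all 6 pairs of arrays, which share their mice across conditions. The differences in Con (0.58) and M2 (0.82) did not pass the test.

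*Npc1*, the membrane protein that exports cholesterol from the lysosome, also passed the test in M1. Its level was 0.94 and 0.10 in WT M1 and 1.72 and 0.94 in KpCKO M1. The cultures differed as much as the genotypes and the ranges overlapped slightly, yet the difference was nearly equal in both cultures (0.81 ± 0.16, adjusted p = 0.0216). In Con and M2 the differences were −0.04 and −0.07. Its soluble partner *Npc2* did not pass the test (−0.31, adjusted p = 0.135), nor did *Asah1*, the acid ceramidase (0.13), or *Psap*, the precursor of the saposins that help sphingolipid hydrolases (0.27).

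Of the 8 genes for glycosidases and a sulfatase, 3 were higher in KpCKO M1 and none was lower, beside 7.42% and 8.58% of all genes. *Sgsh* encodes the sulfamidase that removes sulfate from heparan sulfate. Its level was −1.27 and −1.66 in WT M1 and 0.23 and −0.97 in KpCKO M1, a 2.15-fold higher signal (1.10 ± 0.27, adjusted p = 0.0391). All KpCKO values lay above all WT values, with the larger gap in culture 1. The difference was 0.61 with KpCKO M1 of culture 1 left out and 1.60 with that of culture 2 left out, and the call was lost in 16 of 22 other settings of the limma fit and by the methods' t-test. In Con and M2 the differences had the opposite sign, −0.40 and −0.13, without a call. A second, dimmer probe of *Sgsh* gave a difference of only 0.12. *Neu1*, a sialidase, was higher by 0.47 ± 0.11 (adjusted p = 0.0376), from levels of 3.91 and 3.98 to 4.54 and 4.28, and its second probe gave 0.27. *Gusb*, β-glucuronidase, was higher by 0.40 ± 0.10 (adjusted p = 0.0407), from 4.56 and 4.31 to 4.96 and 4.72. Both genes had separate ranges, and in Con their differences were 0.02 and 0.00. The M1 call of *Neu1* was lost in 16 of 22 other settings of the limma fit, and that of *Gusb* in 15. The other 5, *Gaa*, *Gla*, *Hexa*, *Galc* and *Man2b1*, had differences between −0.08 and 0.54 and did not pass.

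*Ctsd*, the aspartic protease cathepsin D, was higher in KpCKO M1 with levels of 8.82 and 8.58 against 8.26 and 8.12 in WT M1 (0.51 ± 0.09, adjusted p = 0.0151). The ranges did not overlap. Its second probe gave 0.72. *Ctsc* was again lower, at 6.30 and 6.76 against 7.17 and 7.55 in WT M1 (−0.83 ± 0.17, adjusted p = 0.0236), and did not pass with quantile normalization (−0.60, adjusted p = 0.0649). Of 22 other settings of the limma fit, 8 lost the M1 call of *Ctsc*, 5 that of *Ctsd* and 4 that of *Npc1*. The 7 membrane proteins and *Tfeb* held no call in M1, and their differences ranged from −0.31 for *Scarb2*, the receptor that carries glucocerebrosidase to lysosomes, to 0.34 for *Mcoln1*, a cation channel of the lysosomal membrane, while a second, dimmer probe of *Lamp2* gave −0.70 beside −0.25.

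**Figure D2:**
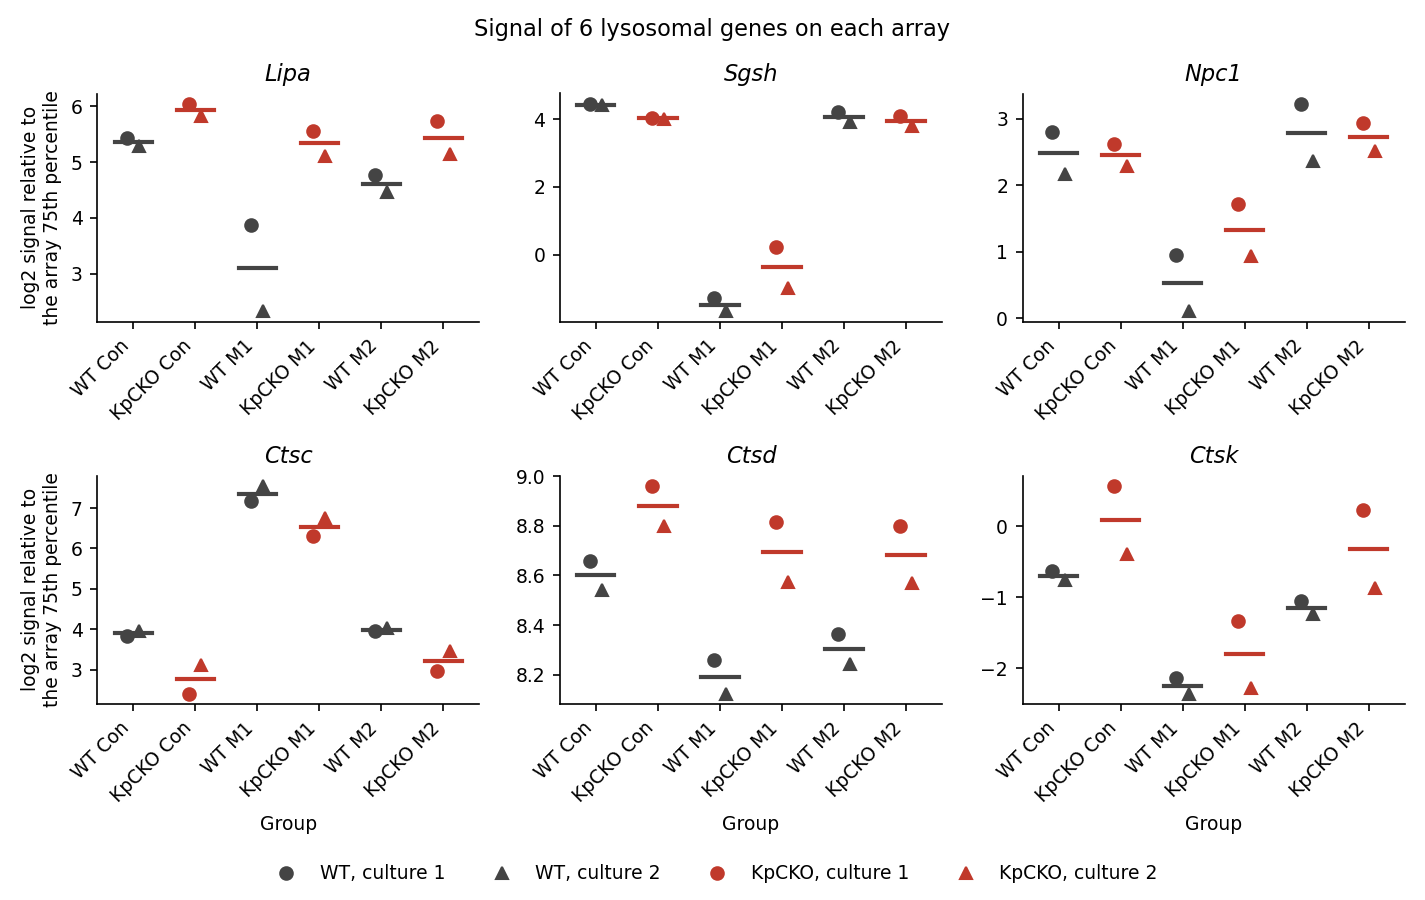
Log2 signal relative to the 75th percentile of the array (vertical axis, a scale of its own in each panel) of 6 lysosomal genes in the 6 groups; circles are culture 1, triangles culture 2, bars the mean of 2 arrays, grey WT and red KpCKO. *Lipa* falls to 3.87 and 2.33 in WT M1 and stays at 5.56 and 5.11 in KpCKO M1, and red points of *Ctsc* lie below the grey ones under each stimulus.

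In M2, limma called none of the 31 genes, against 1.93% of all genes, with 9 at an unadjusted p under 0.05, as were 14.3% of all genes. The methods' t-test called 0 after Benjamini-Hochberg adjustment and 3 before it. The median difference was 0.15, beside 0.02 over all genes. *Ctsc* had a level of 3.97 and 4.02 in WT M2 and 2.96 and 3.46 in KpCKO M2 (−0.78, adjusted p = 0.0842). *Gla*, the α-galactosidase of globotriaosylceramide, had 2.53 and 1.97 in WT M2 and 3.14 and 2.43 in KpCKO M2 (0.54, adjusted p = 0.118).

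The average over the 3 conditions pools the values above and treats the 3 arrays of a mouse as separate, though they are not separate mice. In it 8 genes passed the test, or 25.8% against 17.1% of all genes. Of them 7 were higher in KpCKO, a direction in which 8.61% of all genes were called, and *Ctsc* was lower, as were 8.54% of all genes (−0.92 ± 0.10, adjusted p = 0.00176). *Lipa* was higher by 1.21 ± 0.19 (adjusted p = 0.00676) and *Ctsd* by 0.39 ± 0.05 (adjusted p = 0.00369). The median difference was 0.18, beside −0.02 over all genes. The count was 3 without the WT Con or the WT M2 array of culture 1 and 3 without the term for culture, and 0 when the 3 arrays of each mouse were averaged to 4 values. Without the M1 arrays, 5 remained, all among the 8. With limma over the means of each mouse, the adjusted p was 0.132 for *Ctsc*, 0.101 for *Lipa* and 0.172 for *Ctsd*.

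The smaller averaged differences were in 3 further cathepsins, *Gla* and *Psap*. *Ctsk*, the collagen-degrading cathepsin best known from osteoclasts, was higher by 0.68 ± 0.17 (adjusted p = 0.0333). Its level in KpCKO was 0.56 and −0.40 in Con, −1.34 and −2.28 in M1 and 0.22 and −0.88 in M2. The corresponding WT levels were −0.64 and −0.76, −2.14 and −2.36, and −1.06 and −1.24. Hence the KpCKO mouse of culture 1 stood apart from the other 3 mice in all 3 conditions. Its 8 fibroblast markers, 7 of them above background, also summed highest, to 42.1 to 54.4 times the 75th percentile, against 22.8 to 28.8 in the KpCKO mouse of culture 2 and 33.2 to 41.8 in WT. The 8 osteoclast markers, 7 above background, summed to 4.76 and 5.68 in WT Con against 7.42 and 7.73 in KpCKO Con, to 7.65 and 7.94 against 7.22 and 8.89 in M1, and to 29.2 and 39.4 against 37.0 and 40.6 in M2. In the average 3 of the 7 tested were higher in KpCKO and 1 was lower. The part of either in the difference of *Ctsk* was not tested, and in such bulk cultures fewer cells of a type and less RNA per cell cannot be told apart.

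*Ctsl*, an endopeptidase of broad specificity, was higher by 0.34 ± 0.09 (adjusted p = 0.0485) and *Ctsh*, an aminopeptidase, by 0.30 ± 0.07 (adjusted p = 0.0282). *Ctsl* had levels of 8.49 and 8.2 in KpCKO Con against 8.2 and 8.14 in WT Con, 7.78 and 7.22 against 7.09 and 7.07 in M1, and 8.28 and 7.84 against 7.67 and 7.62 in M2. *Ctsh* had 7.53 and 7.40 against 7.16 and 7.19 in Con, 7.42 and 7.36 against 7.09 and 7.18 in M1, and 7.04 and 7.14 against 6.59 and 6.87 in M2. Both lay higher in KpCKO in all 6 pairs of arrays, which share their mice across conditions. *Gla* was higher by 0.32 ± 0.08 (adjusted p = 0.0302), from levels of 2.87 and 2.43 in WT Con and 2.12 and 1.89 in WT M1 to 3.20 and 2.65 and to 2.48 and 1.84 in KpCKO, so that the M1 arrays of culture 2 did not share the direction. *Psap* was higher by 0.30 ± 0.06 (adjusted p = 0.016), with levels of 8.35 and 8.24, 8.43 and 8.37, and 8.39 and 8.36 in WT Con, M1 and M2 and of 8.73 and 8.55, 8.82 and 8.51, and 8.72 and 8.62 in KpCKO. Its KpCKO range lay above that of WT in each condition. Of 23 other settings of the limma fit, 16 lost the averaged call of *Ctsl*, 13 that of *Ctsh* and 12 that of *Ctsk*. The call of *Gla* was lost in 11 and that of *Psap* in 6. *Mcoln1* (0.29, adjusted p = 0.0561), *Neu1* (0.21, adjusted p = 0.0679) and *Tfeb* (0.27, adjusted p = 0.0879) missed the threshold.

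**Figure D3:**
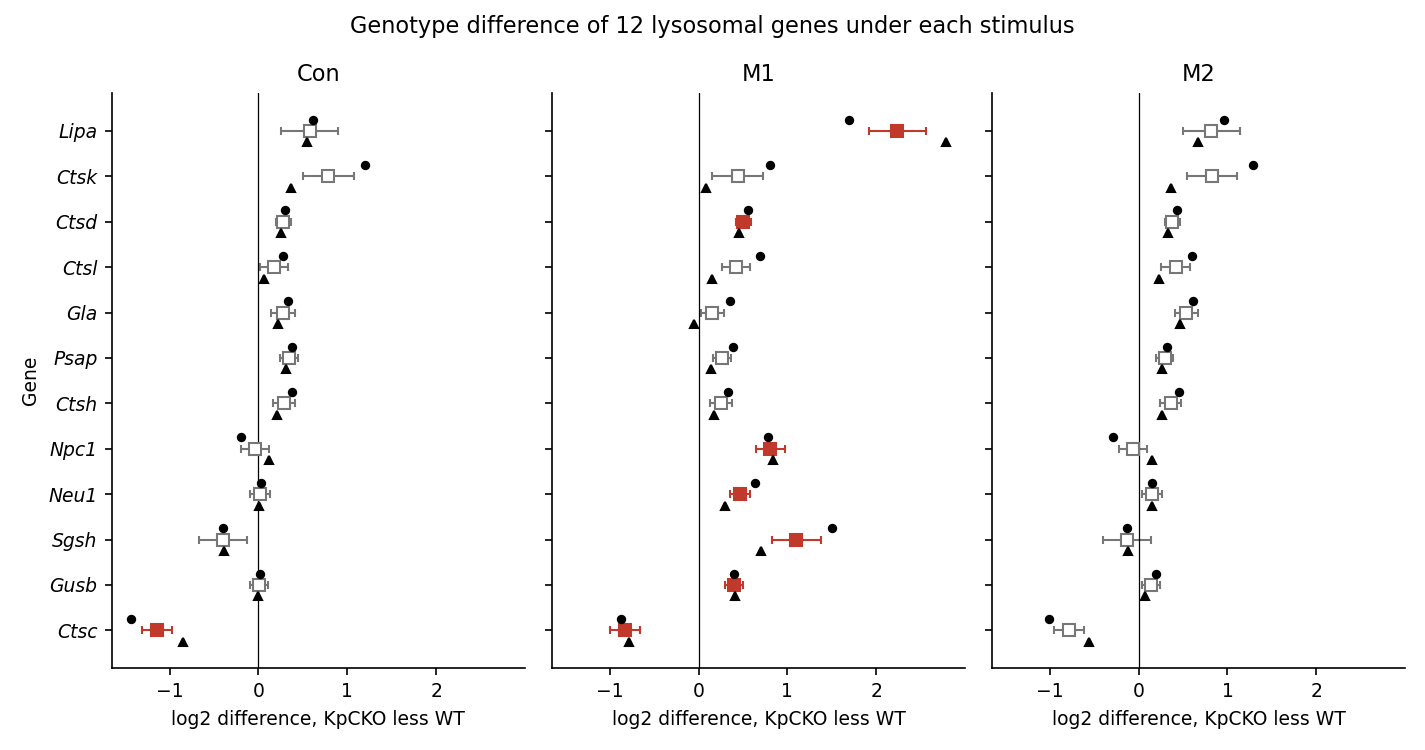
Log2 difference of KpCKO less WT (horizontal axis) in Con, M1 and M2 for the 12 lysosomal genes that passed the test in at least 1 comparison of the genotypes; squares with bars are the difference ± SE, filled red where the adjusted p was under 0.05, and black circles and triangles are cultures 1 and 2. *Ctsc* lies left of 0 in all panels, and *Lipa* lies right of 0 and is farthest from it in M1, at 2.24.

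The sequences before the start sites of *Lipa*, *Sgsh*, *Ctsc* and *Ctsd*, which carried the largest or the steadiest genotype differences, are shown because TFEB and Nrf2 are known to act through short motifs in such regions. They are the 250 bases before the start from RefSeq (GRCm38.p6), on the strand of the gene: *Lipa* at chr19:34527475-34527724 (minus strand), *Sgsh* at chr11:119355511-119355760 (minus strand), *Ctsc* at chr7:88277835-88278084 (plus strand) and *Ctsd* at chr7:142387828-142388077 (minus strand). Capitals mark the E-box CACGTG, its longer form TCACGTGA, and TGACNNNGC and TGAGNNNGC, the letters of the antioxidant response element core, on either strand.
Lipa: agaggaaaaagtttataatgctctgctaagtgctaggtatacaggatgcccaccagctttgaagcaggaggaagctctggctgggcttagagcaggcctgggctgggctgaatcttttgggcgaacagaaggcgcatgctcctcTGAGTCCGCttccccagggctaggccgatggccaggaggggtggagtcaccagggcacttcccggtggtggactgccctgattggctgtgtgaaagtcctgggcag
Sgsh: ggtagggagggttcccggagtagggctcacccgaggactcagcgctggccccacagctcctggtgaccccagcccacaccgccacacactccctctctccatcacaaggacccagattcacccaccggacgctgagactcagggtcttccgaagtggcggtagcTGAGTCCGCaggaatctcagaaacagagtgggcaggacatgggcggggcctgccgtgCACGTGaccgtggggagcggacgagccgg
Ctsc: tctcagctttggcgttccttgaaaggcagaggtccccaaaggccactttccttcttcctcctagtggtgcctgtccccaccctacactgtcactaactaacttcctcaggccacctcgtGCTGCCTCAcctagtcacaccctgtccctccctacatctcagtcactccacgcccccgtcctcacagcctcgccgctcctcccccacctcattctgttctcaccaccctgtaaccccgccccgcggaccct
Ctsd: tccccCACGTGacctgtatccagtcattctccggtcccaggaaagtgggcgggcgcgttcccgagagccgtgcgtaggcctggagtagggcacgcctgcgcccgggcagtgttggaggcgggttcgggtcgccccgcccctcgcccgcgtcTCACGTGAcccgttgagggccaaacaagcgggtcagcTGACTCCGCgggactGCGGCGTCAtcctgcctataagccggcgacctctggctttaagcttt
*Ctsd* held 2 E-boxes, 1 of them in the longer form, and 2 matches to TGACNNNGC, *Sgsh* held 1 E-box and 1 match to TGAGNNNGC, and *Lipa* and *Ctsc* each held 1 match to TGAGNNNGC and no E-box. RefSeq gave 33 promoters, of 300 bases, for 28 of the 32 genes, and *Ctsb*, *Ctsh*, *Asah1* and *Npc1* had none. TCACGTGA, which contains CACGTG, was found in the promoters of *Cln3*, *Ctsa*, *Ctsd*, *Gla* and *Mcoln1*, and in 0.974% of all 32851 promoters. CACGTG was found in those 5 and in *Ctsl*, *Gaa*, *Lamp1* and *Sgsh*, and in 7.15% of all promoters. TGACNNNGC was found for 8 genes, *Cln3*, *Ctsd*, *Ctsz*, *Galc*, *Hexa*, *Psap*, *Scarb2* and *Tpp1*, and in 12.4% of all promoters. TGAGNNNGC was found for 10 genes, *Cd63*, *Cd68*, *Ctsc*, *Ctsz*, *Galc*, *Lipa*, *Man2b1*, *Psap*, *Sgsh* and *Tfeb*, and in 17.6% of all promoters, and either form for 15 genes and in 27.8% of all promoters. Of the 33 promoters of the members, 15.2% held TCACGTGA, 27.3% held CACGTG and 27.3% held TGACNNNGC. TGAGNNNGC was in 33.3% of them and either form in 54.5%. These shares were not tested. A match is a run of letters and not a known site. The 5 genes with TCACGTGA had averaged genotype differences of −0.12, 0.18, 0.39, 0.32 and 0.29 in the order given.

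The M1 response was asked next. In WT, 22 of the 31 genes passed the test, or 71.0% against 63.2% of all genes, with 7 up and 15 down (34.5% and 28.7% of all genes). The median difference was −0.28, beside 0.13 over all genes. Quantile normalization, which moved the median of all genes to −0.08, took that of the 31 to −0.91 and left 1 up and 26 down. Directions are therefore given for both scalings where they part.

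The steepest fall was that of *Sgsh*, from levels of 4.45 and 4.40 in WT Con to −1.27 and −1.66 in WT M1, a 59.4-fold lower signal (−5.89 ± 0.27, adjusted p = 8.48e-06). Its dimmer probe fell by 2.71 on the log2 scale. *Lipa* fell 4.78-fold (−2.26 ± 0.32, adjusted p = 0.000831). *Npc1* fell 3.91-fold (−1.97 ± 0.16, adjusted p = 6.49e-05), from 2.81 and 2.17 to 0.94 and 0.10. *Ctsk* fell 2.93-fold (−1.55 ± 0.29, adjusted p = 0.00281), and *Galc*, which removes galactose from galactosylceramide, fell 2.72-fold (−1.44 ± 0.13, adjusted p = 0.000117), from 0.07 and −0.03 to −1.13 and −1.71. The Con and M1 ranges were separate for all 5, which were picked as the largest falls past the test, so that this is no further support. Quantile normalization gave the same direction for each, between −6.09 and −1.41.

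Further falls past the test were those of *Neu1*, *Gusb*, *Ctsl*, *Gaa*, *Gla*, *Tpp1*, *Mcoln1*, *Ctsd*, *Laptm5* and *Ctsa*, between −1.13 and −0.34. Thus 6 of 8 glycosidase and sulfatase genes fell past the test, where 28.7% of all genes did. The exceptions were *Hexa*, the α-subunit of β-hexosaminidase A (−0.19), and *Man2b1*, the lysosomal α-mannosidase (0.04). *Gaa*, the glycogen-degrading α-glucosidase, had levels of 3.51 and 3.31 in WT Con and 2.62 and 2.06 in WT M1. All 3 aspartic and serine peptidases fell, *Tpp1* being a tripeptidyl peptidase and *Ctsa* the carboxypeptidase that stabilizes the sialidase.

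*Ctsc* rose 11.0-fold in WT (3.46 ± 0.17, adjusted p = 1e-05), from 3.84 and 3.96 to 7.17 and 7.55, and by 2.69 on the log2 scale with quantile normalization. The other rises were small and did not hold under that scaling. *Ctsz*, a carboxypeptidase, rose by 0.86 ± 0.13 (adjusted p = 0.00123), from 7.27 and 7.20 to 8.13 and 8.06, and gave −0.02 with quantile normalization. *Cln3*, a membrane protein whose loss causes juvenile Batten disease, rose by 0.67 ± 0.09 (adjusted p = 0.00071), from 3.36 and 3.16 to 4.0 and 3.86, and gave 0.18 without a call. *Ctsb*, an abundant endopeptidase and exopeptidase, rose by 0.61 ± 0.09 (adjusted p = 0.000997), from 8.26 and 8.32 to 8.82 and 8.98, whereas quantile normalization turned it to −0.29 (adjusted p = 0.0466) and its dimmer probe gave −0.59. *Npc2* rose by 0.60 ± 0.13 (adjusted p = 0.00533), from 6.35 and 6.40 to 6.81 and 7.12, and was turned to −0.29 (adjusted p = 0.0299). *Ctss*, which trims the invariant chain of MHC class II (0.54), and *Scarb2* (0.38) rose as well and were turned to −0.35 and −0.21. *Lamp1* and *Lamp2*, the major glycoproteins of the membrane, the tetraspanin *Cd63*, *Psap*, *Asah1*, *Ctsh* and *Tfeb* (0.00) did not pass the test, and a second probe of *Lamp2* gave 0.89 beside 0.24.

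In KpCKO, 14 of 31 genes passed, or 45.2% against 50.2% of all genes, with 5 up and 9 down (24.8% and 25.4% of all genes), or 2 up and 24 down with quantile normalization. The 14 were all called in WT too, in the same direction. *Sgsh* fell 21.0-fold (−4.39 ± 0.27, adjusted p = 4.18e-05), *Npc1* 2.18-fold (−1.12, adjusted p = 0.00117) and *Ctsk* 3.71-fold (−1.89, adjusted p = 0.00157). *Ctsc* rose 13.7-fold (3.77 ± 0.17, adjusted p = 1.44e-05), from 2.41 and 3.11 to 6.30 and 6.76. *Lipa* gave −0.60 without a call (adjusted p = 0.163), from 6.04 and 5.82 to 5.56 and 5.11.

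Whether the M1 response itself differed between the genotypes was tested as an interaction. Limma called none of the 31 genes, against 0.0716% of all genes, with 7 (22.6%) at an unadjusted p under 0.05, as were 16.4% of all genes. The widest were *Lipa* (1.66 ± 0.45, adjusted p = 0.183), *Sgsh* (1.5 ± 0.38, adjusted p = 0.17) and *Npc1* (0.85 ± 0.22, adjusted p = 0.177), whose fall was smaller in KpCKO in both cultures. *Lipa* passed when WT M1 of culture 1 was left out, the array nearer to the Con level (2.26, adjusted p = 0.00872). With WT M1 of culture 2 left out it was 1.06 (adjusted p = 0.186), and over the arrays left out in turn the adjusted p reached 0.5.

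**Figure D4:**
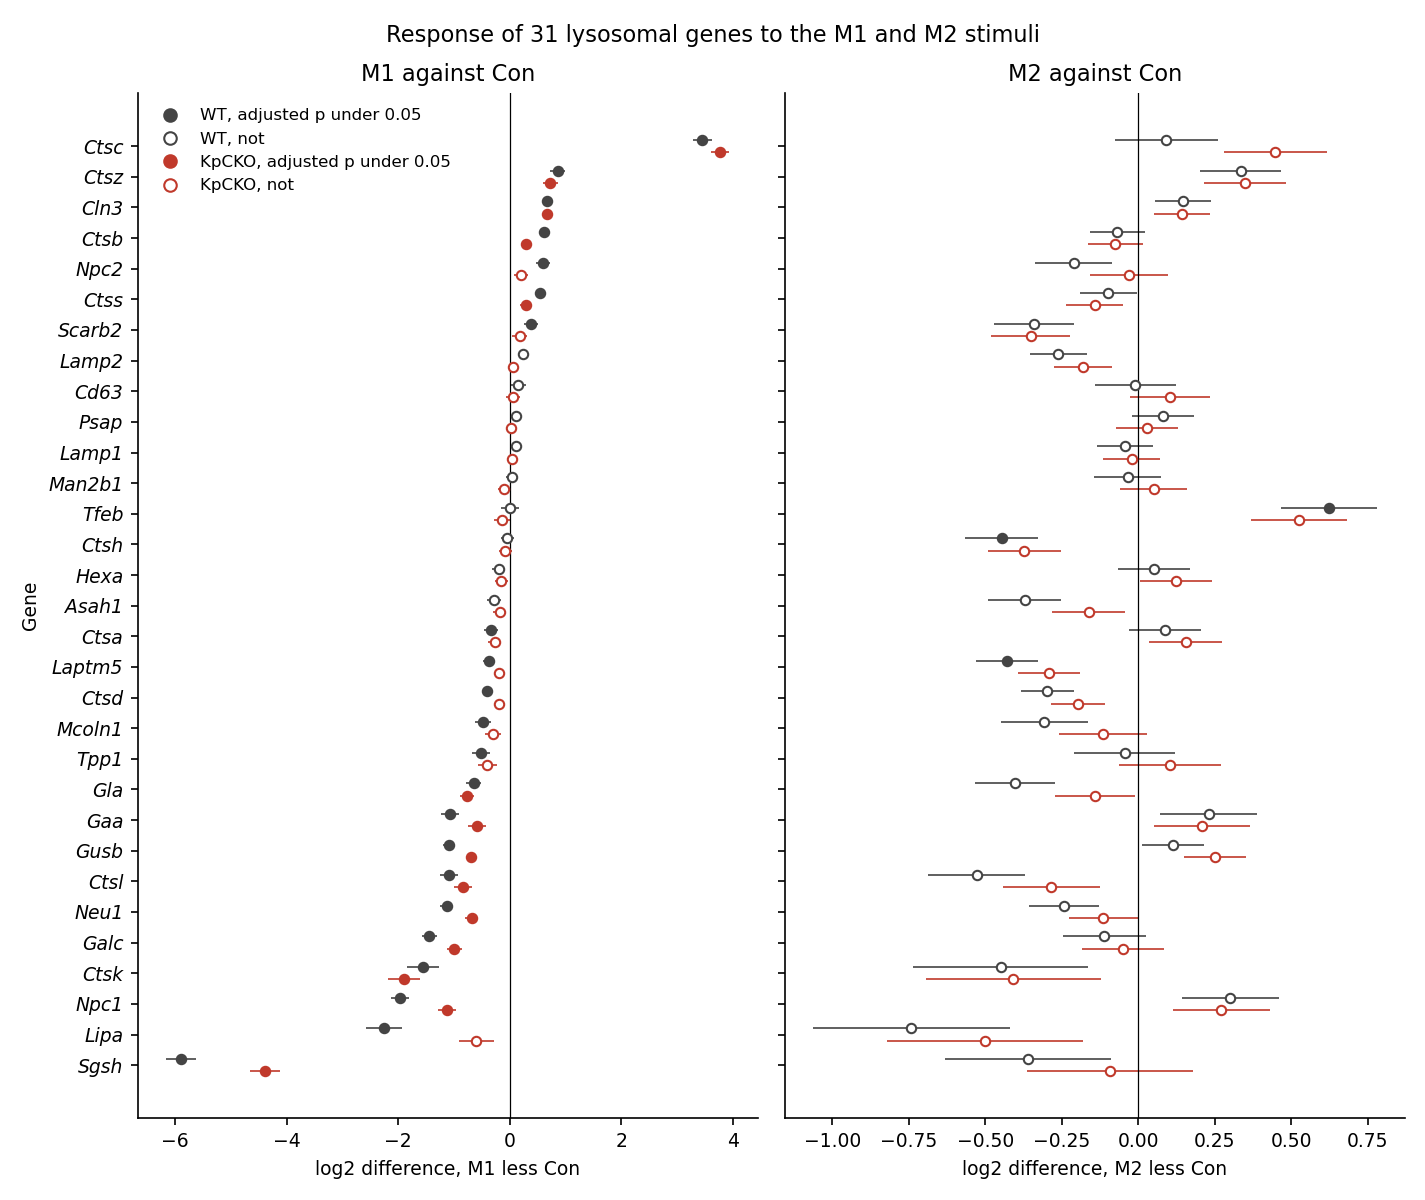
Log2 difference of M1 less Con (left) and M2 less Con (right, a narrower scale) for 31 lysosomal genes in WT (grey) and KpCKO (red), ordered by the M1 response of WT; points with bars are the difference ± SE and filled points have an adjusted p under 0.05. *Sgsh* lies at −5.89 in WT and −4.39 in KpCKO, *Lipa* at −2.26 and −0.60, and the M2 differences stay between −0.74 and 0.62.

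IL-4 moved few of these genes. In WT M2, 3 of 31 passed the test, or 9.68% against 16.8% of all genes, with 1 up and 2 down (8.62% and 8.20% of all genes), or 1 up and 6 down with quantile normalization. The median difference was −0.10, beside −0.01 over all genes. *Tfeb*, the master regulator of lysosomal genes, rose by 0.62 ± 0.16 (adjusted p = 0.0383), from −1.39 and −1.45 in WT Con to −0.66 and −0.93 in WT M2. *Ctsh* fell (−0.45 ± 0.12, adjusted p = 0.0465), from 7.16 and 7.19 to 6.59 and 6.87. *Laptm5*, a membrane protein of haematopoietic cells, fell as well (−0.43 ± 0.10, adjusted p = 0.0319), from 5.26 and 5.32 to 4.85 and 4.87. The ranges were separate for all 3, which is no further support for genes picked by the test. All 3 calls were lost on leaving out any of the 4 arrays compared, and that of *Ctsh* on leaving out any other array too. Of 22 other settings of the limma fit, 16 lost the call of *Ctsh*, 11 that of *Tfeb* and 10 that of *Laptm5*.

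In KpCKO M2, limma called none of the 31 genes against 10.2% of all genes, with 7 (22.6%) at an unadjusted p under 0.05, as were 27.1% of all genes, and the methods' t-test called 0 after adjustment and 2 before. *Tfeb* gave 0.53 (adjusted p = 0.0819), from −1.09 and −1.06 to −0.43 and −0.67, and *Laptm5* gave −0.29 (adjusted p = 0.121). The M2 response did not pass a test of difference between the genotypes for any of the 31, against 0.00894% of all genes called, and none had an unadjusted p under 0.05.

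Other genes of the lysosome were read from 7 lists. Between the genotypes in M1, where 7.42% of all genes were called higher and 8.58% lower, 1 of 17 v-ATPase subunits, 5 of 31 further hydrolases, 5 of 22 further membrane proteins, 4 of 18 genes of sorting and mannose 6-phosphate tagging, 1 of 20 genes of TFEB relatives and their regulators, 0 of 5 inhibitors of cysteine proteases and 4 of 22 autophagy genes were higher in KpCKO, while 1 hydrolase, 1 membrane protein and 1 autophagy gene were lower. With quantile normalization 7 membrane proteins were higher and none was lower. *Sort1*, the sorting receptor sortilin, had levels of −1.14 and −1.41 in WT M1 and 0.77 and 0.92 in KpCKO M1 (2.12 ± 0.14, adjusted p = 0.000707). It was also higher in Con (0.82, adjusted p = 0.0392) and M2 (1.20, adjusted p = 0.0103). *Slc11a1*, the metal ion transporter NRAMP1 of phagosomes, had 4.88 and 5.00 in WT M1 and 6.74 and 6.27 in KpCKO M1 (1.56 ± 0.21, adjusted p = 0.00737), and gave differences of 1.38 in Con and 1.72 in M2 (adjusted p = 0.0286 and 0.0125). Both were higher in KpCKO in all 6 pairs of arrays, which share their mice across conditions. The rule for naming list genes required the same sign in both cultures, so that this is no separate support. *Atp6v0d2*, a v-ATPase subunit, was higher by 2.16 (adjusted p = 0.0185), *Gabarapl1*, an ATG8 homologue, by 1.43 (adjusted p = 0.00856), *Gga2*, an adaptor of mannose 6-phosphate receptors, by 1.18 (adjusted p = 0.0141) and *Sqstm1*, the autophagy receptor p62, by 1.12 (adjusted p = 0.0167). The hydrolase gene *Ctsf* was lower (−0.77, adjusted p = 0.0366), and so was the autophagy gene *Uvrag* (−0.63, adjusted p = 0.0167). Further calls were those of *Mcoln2*, a cation channel (1.31), *Manba*, β-mannosidase (0.98), *Slc29a3*, a nucleoside transporter (0.98), *Galns* (0.74), *Lamtor4*, of the complex that docks mTORC1 (0.53), and *Vps33a*, of the tethering complexes for lysosomal fusion (0.44). In Con and M2, *Cst6*, an inhibitor of cysteine proteases, was higher by 1.16 and 1.14 (adjusted p = 0.0214 and 0.0242), and *Galns*, a sulfatase, was higher by 0.98 in M2 (adjusted p = 0.0405). There was no further call in Con or M2 in these lists.

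Averaged over the conditions, where 8.61% of all genes were called higher and 8.54% lower, 2 of 17 v-ATPase subunits, 7 of 31 hydrolases, 4 of 22 membrane proteins, 3 of 18 sorting genes, 2 of 5 protease inhibitors and 5 of 22 autophagy genes were higher in KpCKO, and 2 hydrolases, 3 membrane proteins (7 higher and 2 lower with quantile normalization) and 1 autophagy gene were lower. Of the 20 TFEB relatives and regulators limma called 0, with 4 at an unadjusted p under 0.05. The differences of the leading genes were 1.89 and 0.19 for *Atp6v0d2* and *Atp6v1b2*, 0.86, 0.69 and −0.68 for *Galns*, *Acp5* and *Ctsf*, and 1.56, 0.61 and −0.48 for *Slc11a1*, *Slc29a3* and *Cd164*. They were 1.38, 0.32 and 0.25 for *Sort1*, *Igf2r* and *Vps33a*, 0.90 and 0.22 for *Cst6* and *Cstb*, and 0.95, 0.70 and −0.34 for *Gabarapl1*, *Sqstm1* and *Uvrag*. *Acp5*, tartrate-resistant acid phosphatase, and *Atp6v0d2* are also known from osteoclasts, whose markers moved between the genotypes as given beside *Ctsk*, and the part of that in these differences was not tested.

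In the M1 response of WT, where 34.5% of all genes rose and 28.7% fell, 6 v-ATPase subunits rose and 4 fell of 17, 6 hydrolases rose and 14 fell of 31, 7 membrane proteins rose and 9 fell of 22, and 4 sorting genes rose and 8 fell of 18. Of TFEB relatives and regulators 5 rose and 10 fell of 20, of protease inhibitors 4 rose and 0 fell of 5, and of autophagy genes 5 rose and 13 fell of 22. With quantile normalization the same pairs of counts were 2 and 12, 3 and 21, 4 and 12, 3 and 12, 3 and 13, 1 and 2, and 3 and 16. *Cst7*, cystatin F, an inhibitor that acts on cathepsin C, rose by 5.70 ± 0.28 on the log2 scale (adjusted p = 1.1e-05). *Tpcn1* and *Tpcn2*, the two-pore cation channels, fell (−4.06 and −3.35, adjusted p = 1.03e-05 and 0.000582), as did *Hyal1*, a hyaluronidase (−4.20, adjusted p = 0.00018), *Sort1* (−2.96, adjusted p = 9.68e-06) and *Gga2* (−2.42, adjusted p = 7.13e-05). *Tfec* and *Mitf*, relatives of *Tfeb*, rose by 2.55 and 1.63 (adjusted p = 0.0018 and 0.000171), whereas *Rragd* and *Flcn*, which tie TFEB to nutrient signals, fell (−2.70 and −2.24, adjusted p = 0.000432 and 0.000748). Among v-ATPase subunits *Atp6v0a2* and *Atp6v1e1* rose by 1.28 and 1.14, and *Atp6v0d2* and *Atp6v1a* fell (−2.44 and −1.09). Of the autophagy genes *Atg16l1* and *Optn* rose by 1.43 and 1.37, and *Ulk2* and *Calcoco1* fell (−5.11 and −2.29). The phosphatases *Acp5* and *Acp2* and the peptide transporter *Slc15a3* rose by 1.44, 1.11 and 2.20, and *Pcyox1* fell (−2.58). *Ap3b1* (0.67) and *Cstb* (0.55) rose as well, but turned to −0.08 and −0.31 with quantile normalization. *Clcn7*, a chloride and proton exchanger, rose by 2.40 (adjusted p = 3e-05) and *M6pr*, a mannose 6-phosphate receptor, by 1.22 (adjusted p = 0.00018).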

How the data were processed

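RNA of WT and KpCKO BMDMs was measured on 12 one-colour Agilent arrays, 2 per group. Spots were read by the authors in Feature Extraction 10.7.3.1 from Agilent (per the submitters' processing notes) who deposited the background-subtracted intensity of each spot, not scaled between arrays, beside median and background intensities and flags. They also deposited a matrix of log2 values, equal to the scaled log2 intensities centred on the median of each probe, which served as an alternative. Outlier spots were left out, replicate spots were averaged per probe, and the 75th percentile of an array was subtracted from its log2 intensities. The 26690 of 41174 probes matched by accession to RefSeq (GRCm38.p6, names only) gave 18217 symbols. The brightest probe stood for a gene. Limma 3.58.1 in R 4.3.3 fitted group and culture on 22373 genes that were well above background in at least 1 group, on each of its arrays, with Benjamini-Hochberg adjustment at 0.05. Residual degrees of freedom were 5 and prior ones 1.92. Scripts were tested on simulated data. Plots were made with Python 3.11.15 and matplotlib 3.10.9.

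The culture term rests on the series' description, which places a WT and a KpCKO mouse in each culture. Deviations of arrays of the same culture correlated at 0.162 to 0.597 across genes in 15 pairs of groups. The members and lists were chosen with earlier results of these data known. Full values are given for genes past the test in a comparison of the genotypes and for the 5 largest rises and falls in the M1 and M2 responses of WT. From each list up to 3 genes per genotype comparison and 2 per direction in the M1 response of WT are named. List genes in the genotype comparisons were taken from those past the test with the same sign in both cultures. Alternatives were quantile normalization, a normexp correction, the authors' matrix, other filters and probe rules, other variance models, the methods' t-test and leaving out each array, and, chosen after seeing the data, leaving out the M1 arrays from the average.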

Additional observations from a re-analysis of the deposited data

How the results depend on the processing

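The authors' matrix kept each count of called members within 1.5 times the value given above. It holds the same scaled values centred per probe, which leaves group differences unchanged, so that it was no separate check. Quantile normalization moved the M1 response of KpCKO from 14 to 26, the M2 response of WT from 3 to 7 and the M2 response of KpCKO from 0 to 2, and reversed *Ctsb* (−0.29), *Npc2* (−0.29) and *Ctsz* (−0.0161) in the M1 response of WT. The normexp correction gave 0 for the genotypes in Con, 2 in M1 and 1 for the M2 response of WT. With no filter on dim probes the counts were 0 in Con, 4 in M1, 4 for the average and 0 for the M2 response of WT, and with a filter on all 12 arrays that response had 5. With no replicate block, that is without the pairing by culture, they were 0 in Con, 1 in M1, 3 for the average, 9 for the M1 response of KpCKO and 0 for the M2 response of WT, and that setting moved no other count by over 1.5 times. Trended and robust variances gave 2 in Con, 11 in M1, 2 in M2, 8 for the M2 response of WT and 1 for that of KpCKO. With only the groups compared in the model there were 0 in Con, 0 in M1 and 14 for the M1 response of WT. The mean of the probes of a gene took *Ctsb* in that response to 0.0096 and removed its call. The average had 0 over the means of each mouse and 5 without the M1 arrays.

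The methods' t-test after Benjamini-Hochberg adjustment gave 0 for the genotypes in Con and M1, 6 for the M1 response of WT, 0 for that of KpCKO and 0 for the M2 response of WT. Unadjusted it gave 4 in Con, 1 in M1, 3 in M2, 13 and 9 for the M1 responses of WT and KpCKO, and 8 and 2 for the M2 responses. Leaving out each array in turn, where the lone array of a group is assumed to vary like the others, gave 0 to 1 calls in Con, 0 to 6 in M1, 0 to 1 in M2, 3 to 11 for the average, 17 to 22 and 11 to 16 for the M1 responses of WT and KpCKO, 0 to 3 and 0 to 1 for the M2 responses, 0 to 1 for the difference of the M1 response and 0 for that of the M2 response. Slide as a block could not be fitted beside the groups, since each slide held a single stimulus. The cause of these shifts was not tested. With 2 arrays per group an exact test cannot go below p = 0.333, so none is given.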
